A study of Rattus norvegicus with 3 samples.

Results

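Kidney transcripts of rats given a high dose of a blue mussel protein hydrolysate were compared with those of rats given water. The comparison was between 1 array of each group. A gene entered it when its probe, not a control probe of the array, reached a signal-to-noise ratio of 3 on both arrays, which held for 9928 of the 18048 named genes on the array. All animals were male spontaneously hypertensive rats, a strain of Wistar background that develops high blood pressure, aged 8 to 10 weeks and weighing 280 to 330 g. The control group received about 3 mL of water by mouth, and the high-dose group received HBMP, the hydrolysate of blue mussel (Mytilus edulis) protein, at 20 mg/kg/day in the same volume, both for 28 days. A low-dose group at 10 mg/kg/day was treated alike and is used here only for values set beside the others. Each group had 10 rats, and kidney RNA of 4 rats of a group was mixed in equal amounts and hybridised to 1 rat oligonucleotide array with a single dye. With 1 array per group no test was possible, the values describe these pools only, and nothing in them measures the spread between animals.

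The kidney filters blood in the glomerulus and returns most of the filtrate along the tubule. The proximal tubule takes back glucose, amino acids, phosphate and filtered protein through carriers and peptidases of its brush border, and it moves organic anions and cations from blood to urine. The loop and distal segments recover salt, and the collecting duct adjusts salt and water under aldosterone and vasopressin. Renal transcripts also follow glucocorticoids and the daily clock. In bulk RNA, fewer cells of a type and less RNA per cell cannot be told apart.

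The labelled tissue was borne out by its markers. Slc34a1, Lrp2, Slc5a2 and Slc22a6 of the proximal tubule, Umod and Slc12a1 of the thick ascending limb, Slc12a3 of the distal tubule, Aqp2 of the collecting duct, and Nphs1 of the podocyte all stood above background on both arrays. Of 30367 probes, 50.4% were above background on the control array and 54.7% on the high-dose array. The 2 arrays correlated across probes at 0.990 (Pearson, log2, 14992 probes above background on both). In the file of the high-dose array the header gives a mouse design, but its spots carry the same annotation as those of the control array, and it was read as the rat design. All arrays lay on 1 slide, so slide position and group cannot be told apart, and a further high-dose array that the header lists was not analysed here. A corner of the control array had weak signal. The 98 genes measured only in that corner had a median log2 difference of 0.37, and they are marked wherever they are named.

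Most genes differed little, and the largest differences were upward. Throughout, a level is a background-corrected intensity scaled to an equal 75th percentile on each array, and a difference is the log2 of high dose over control, so that a negative value is lower at the high dose. The median difference over all 9928 genes was -0.05, with 5% of genes below -0.54 and 5% above 0.52, and 92.5% of genes lay within 1.5-fold of control. A 2-fold higher level was reached by 84 genes (0.846%), and a 2-fold lower level by 15 genes (0.151%). At 1.5-fold the sides were nearly even, with 368 genes higher (3.71%) and 375 lower (3.78%). In any size, 5603 genes (56.4%) lay below control and 4325 (43.6%) above. No gene was 3-fold lower or more, whereas 22 reached 3-fold above control and 6 reached 8-fold. With normexp background correction, a model used with an offset that draws dim values together, the 2-fold counts were 37 higher and 2 lower and the 1.5-fold counts 156 higher and 105 lower. With the signal-to-noise filter raised to 10, the 1.5-fold counts were 166 higher and 271 lower, and the 2-fold counts 34 higher and 10 lower. The near balance at 1.5-fold thus depended on the processing, whereas the 2-fold differences were mostly upward with and without each of these changes.

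**Figure D1:**
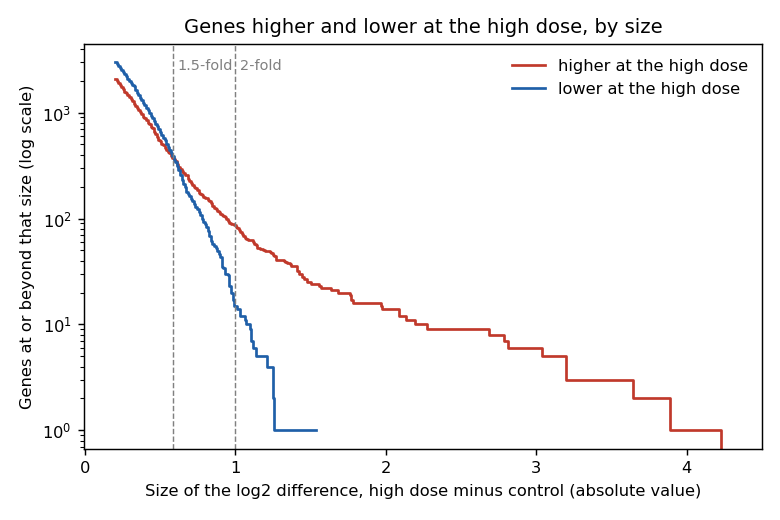
Number of genes (log scale) at or beyond each size of the log2 difference between high dose and control, drawn separately for genes higher and lower at the high dose, with the 1.5-fold and 2-fold sizes marked. The lower curve starts above the higher one, meets it near 1.5-fold, where 375 and 368 genes stand, and ends at 1.53 (Bcl6), while the higher curve runs to 4.22 (Scd).

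The balance between the sides changed with signal. With genes split into 4 equal groups by signal, in the dimmest group the median difference was 0.00, and 49.8% of the genes were below control. In the brightest group, which began at a mean scaled intensity of 617, the median was -0.12 and 66.4% of genes were below control, against 56.4% of all genes. Genes at least 1.5-fold lower outnumbered the higher ones there, 106 against 40. In the dimmest group they did not, with 86 lower and 110 higher. Because of this slope, the median of each gene list that lay 0.2 or more from 0 is also given relative to genes of like signal, after subtracting from each gene the median of its own signal group.

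**Figure D2:**
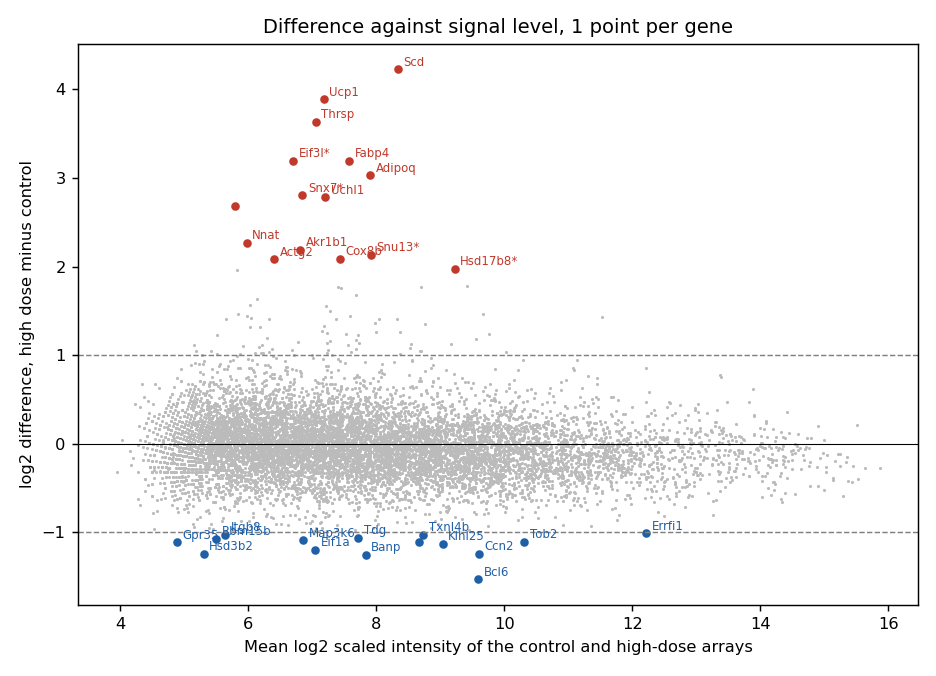
The log2 difference between high dose and control of each gene against its mean log2 scaled intensity on the control and high-dose arrays, with the 15 genes at least 2-fold lower in blue and the 15 farthest above control in red (some carry no name, and an asterisk marks genes measured only in the weak corner). The blue points lie between -1.01 and -1.53 at all levels of signal, and the red points between 1.97 and 4.22 lie mostly at low and middle signal.

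Bcl6, a transcriptional repressor, was the gene farthest below control. Its level was 1314 on the control array, 455 on the high-dose array and 938 on the low-dose array, a difference of -1.53 at the high dose, or 2.89-fold. Ccn2, a secreted matrix protein known as connective tissue growth factor, had levels of 1192, 504 and 1071 on the control, high-dose and low-dose arrays. Its probe was printed on 10 spots, whose differences lay between -1.34 and -1.12 around -1.24, with an SD between spots of 0.06. On the low-dose array Ccn2 stood close to control, so the high-dose array alone was low. Of the 15 lower genes, Bcl6 and Ccn2 alone stayed at least 2-fold lower when the background was corrected by normexp, with -1.38 and -1.11. Ccn2 aside, the lower genes, Bcl6 included, were measured on 1 spot by 1 probe each, so no repeat within the array stands behind them.

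Several of the lower genes act in signalling and gene control. Errfi1, a feedback inhibitor of the epidermal growth factor receptor, was among the brighter of them, with 6770 on the control, 3362 on the high-dose and 5269 on the low-dose array (difference -1.01, normexp -0.93). Tob2, an antiproliferative protein that binds the mRNA deadenylase complex, had 1867, 869 and 1312 (-1.10). Map3k6, a kinase at the top of a stress kinase cascade, had 169.7, 79.7 and 211 (-1.09). It was the lower gene whose low-dose level lay above control. Of the 14 lower genes above background on all 3 arrays, the other 13 lay below control on the low-dose array as well, some by very little. Both doses are read against the same control array, so the doses are not separate evidence for the lower direction.

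Tdg, a glycosylase that removes mismatched thymine from DNA, had levels of 304 on the control, 146 on the high-dose and 300.0 on the low-dose array (-1.06). Banp, a nuclear DNA-binding protein, had 352, 148 and 204 (-1.25). Eif1a, a translation initiation factor, had 199.5, 87.0 and 179 (-1.20). Tdg and Eif1a were thus low on the high-dose array with a low-dose level near control, whereas Banp was low on both. Txnl4b, a thioredoxin-like protein tied to the spliceosome, stood at 609, 299 and 540.2 (-1.03), and its difference was -0.60 in the authors' deposited log2 values. Rbm15b, an RNA-binding protein of the mRNA methylation complex, was dim at 65.4, 31.2 and 52.1 (-1.07, normexp -0.49).

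Other lower genes encode membrane proteins, a ubiquitin ligase adaptor and an enzyme. Klhl25, an adaptor of a cullin ubiquitin ligase, had 779 on the control, 356 on the high-dose and 457 on the low-dose array (-1.13). Itgb8, an integrin subunit, had 71.1, 34.8 and 41.5 (-1.03). In both genes the low-dose level lay between the others. Gpr35, a G protein-coupled receptor, was near the floor of the measurement at 43.6, 20.2 and 30.9 (-1.11, normexp -0.52). Hsd3b2, a steroid dehydrogenase of steroid-making tissue, was dim too, at 60.8 and 25.7, with 13.5 on the low-dose array where it was not above background (-1.24, normexp -0.64). Of 17 adrenal genes, 7 were measured, with a median of 0.03 and a summed level of 3053 on the control and 3317 on the high-dose array. The adrenal genes Cyp11a1, Cyp11b1, Cyp11b2, Star, Dbh and Chga were not above background on either array. Pnmt and Th, also adrenal genes, were above background on both arrays, with differences of 0.48 and 0.03. The part of adrenal RNA in the Hsd3b2 difference was not tested.

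Probes printed on 10 spots allow the lower side to be judged against the spread within an array. The log2 difference of such a probe had a median SD between spots of 0.11, which is technical spread only. Of 973 genes with such a probe, 24 were at least 1.5-fold lower (2.47%) and 37 at least 1.5-fold higher (3.8%). In 22 of the 24 every spot lay below control, the others being Dnajc6 and Ube4a, and in 37 of the 37 every spot lay above. These genes were chosen by the mean of the same spots, so the agreement of their spots is no separate evidence for the direction. After Ccn2 the farthest were Gjb2, a gap junction connexin, and Slc22a23, a member of the organic ion carrier family. Gjb2 had 2356 on the control, 1324 on the high-dose and 1269 on the low-dose array, a difference of -0.83 with a spot SD of 0.10. Slc22a23 had 1651, 930.0 and 1181, a difference of -0.83 with a spot SD of 0.09, and its other probe stood at -0.57.

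The rest of the 10 farthest were smaller still. Slc25a25, a mitochondrial carrier that exchanges ATP-magnesium for phosphate, had 1337, 816 and 1038 on the control, high-dose and low-dose arrays, a difference of -0.71 with a spot SD of 0.04. Klf15, a transcription factor of amino acid and glucose metabolism, had 1183, 735 and 741 (-0.69, spot SD 0.10). Enpp1, which makes pyrophosphate outside the cell, had 429, 256 and 298 (-0.75, spot SD 0.11). In each of them the high-dose level was the lowest of the 3 arrays, and the low-dose level lay below control. Slc10a1, a bile acid carrier, was dim, with a difference of -0.77 and a wider spot SD of 0.24. Vps13c, a lipid transfer protein, stood at -0.72, Wdr37 at -0.72 and the small GTPase Rasd2 at -0.67.

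A different probe of the same gene is a further check, and it bore out the direction more often than the size. Of 1190 genes with exactly 1 other probe above background, 60 were 1.5-fold to 2-fold lower by the brighter probe (over all genes 3.63%). The other probe lay below control in 49 of these 60 (81.7%), against 45.8% of all 1190 genes. It was itself at least 1.5-fold lower in 14, with a median of -0.25. For genes 1.5-fold to 2-fold higher (2.86% of all), the other probe lay above control in 21 of 26 (80.8%), against 54.2% of all 1190 genes. Its median was 0.33. It was itself at least 1.5-fold higher in 9 of the 26 and at least 1.5-fold lower in 3. Across the 1190 genes, which are not independent, the 2 probes' differences correlated at 0.47, with a median gap of 0.24 between them. No gene at least 2-fold lower has another probe, so this check does not reach them.

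**Figure D3:**
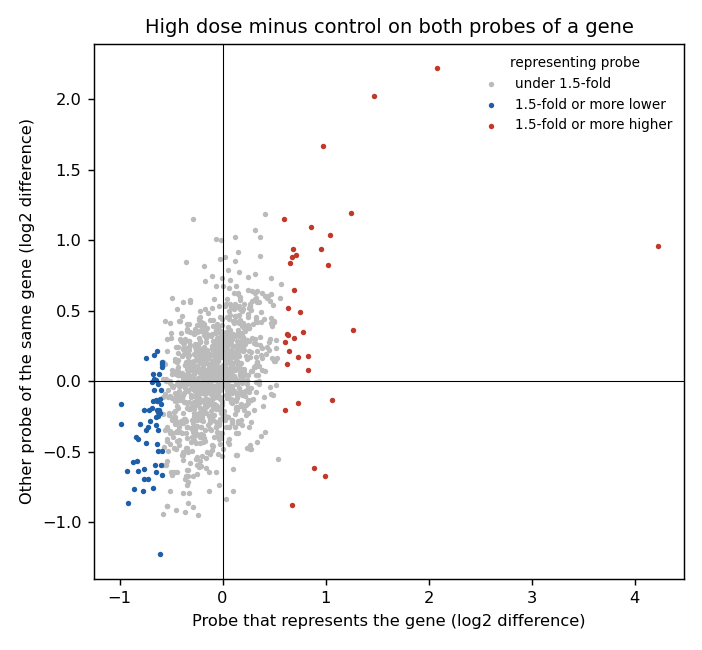
The log2 difference between high dose and control of the probe that represents a gene (horizontal) and of the gene's other probe (vertical), for 1190 genes with exactly 1 other probe above background; blue and red mark genes at least 1.5-fold lower and higher by the representing probe. The other probe lies below 0 for 49 of the 60 genes in blue, but mostly nearer to 0.

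Of 69 genes 1.5-fold to 2-fold lower with any other probe, 15 were at least 1.5-fold lower by every probe and 54 below control by every probe. Abcb1b, a drug efflux pump, was at -0.92 and -0.87 by its 2 probes, with levels of 230.5, 122 and 153 on the control, high-dose and low-dose arrays by the brighter probe. Add3, a protein of the membrane skeleton, was at -0.86 and -0.77. Slit2, a secreted guidance cue, was at -0.77 and -0.78. Slc12a3, the thiazide-sensitive sodium chloride carrier of the distal convoluted tubule, was at -0.65 and -0.64, with levels of 2417, 1542 and 1839. Its 2 probes thus gave nearly the same size. Ammecr1l stood at -0.93 and -0.64, and Tmem252 at -0.76 and -0.69. Cep152, a centriole protein, stood at -0.82 and -0.64, and Hps5, a protein of lysosome-related organelles, at -0.73 and -0.69. Zfp318, a zinc finger protein, stood at -0.67 and -0.76. Tnrc6b, a partner of Argonaute in silencing by small RNA, was low by 3 probes, at -0.63, -0.65 and -0.63.

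Genes of the lists built around the proximal tubule were low together, without any large single difference. Some members, such as Slc2a1, are not particular to that segment. The lists of proximal tubule markers, brush border peptidases, amino acid and peptide carriers, organic ion carriers, and glucose, phosphate and gluconeogenesis genes hold 111 different genes, of which 98 passed the filter on both arrays. Of these 98, 81 lay below control (82.7%, against 56.4% of all genes) and 17 above. Their median difference was -0.34 against -0.05 for all genes, and the middle 50% of them lay between -0.53 and -0.08. At least 1.5-fold lower were 19 (19.4%, against 3.78% of all genes). At least 1.5-fold higher were 4 (3.71% of all genes), and 0 of the 98 differed 2-fold in either direction. Over all genes 0.846% were 2-fold higher and 0.151% 2-fold lower, so these 2 counts are near the shares of all genes. In the brightest group, where all genes had a median of -0.12, 50 of 53 members lay below control with a median of -0.43. Among the 45 dimmer members 31 lay below control with a median of -0.21. The share below control was thus higher among bright members.

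**Figure D4:**
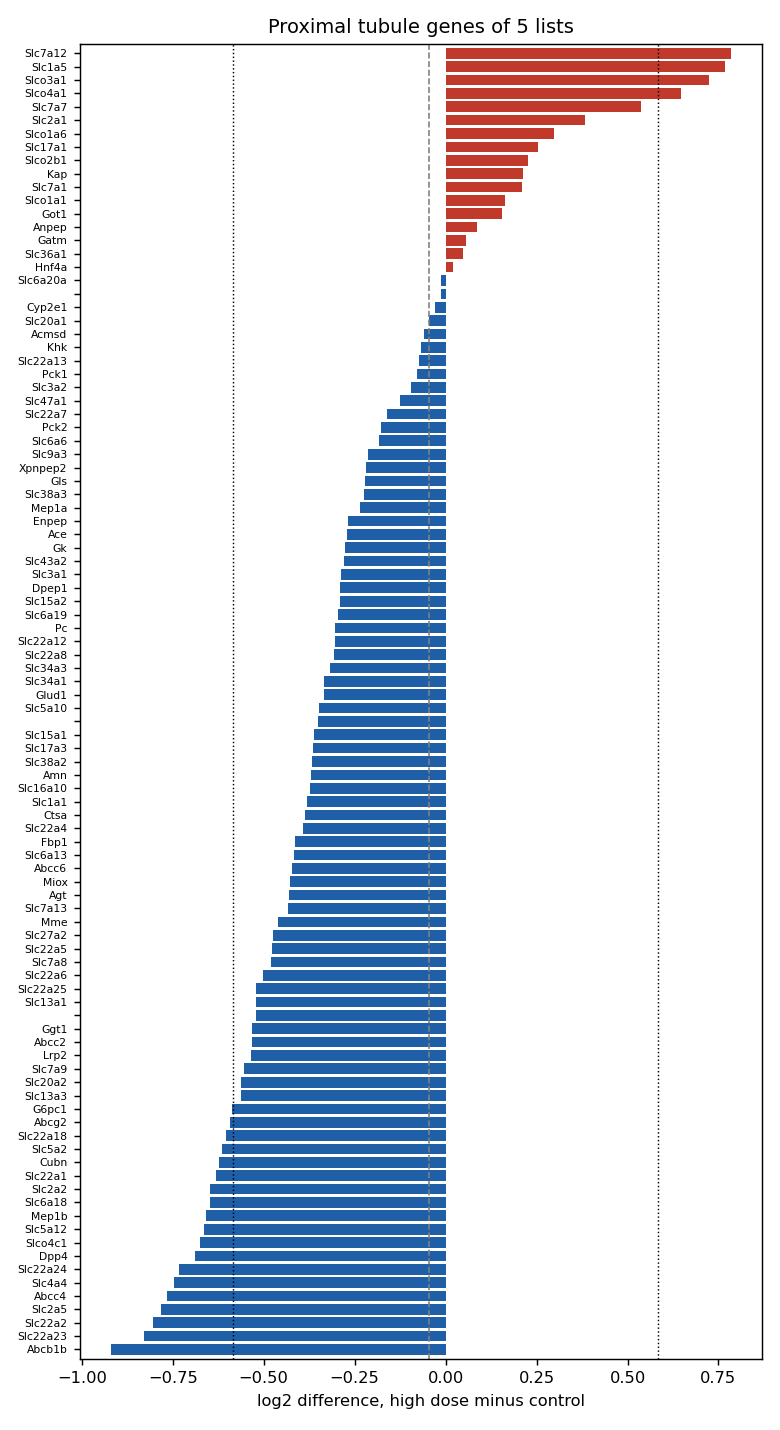
The log2 difference between high dose and control of each of the 98 measured genes of the lists built around the proximal tubule (bars, some without a name), with dotted lines at 1.5-fold in either direction and a dashed line at the median of all genes, -0.05. Blue bars to the left are 81 genes below control, down to -0.92 (Abcb1b), and red bars are 17 genes above it, up to 0.79 (Slc7a12).

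Repeat spots or probes were present for some of these genes. The 11 members with 10 spots had a median of -0.22, with 9 below control. Of 15 members with another probe, 8 lay below control by every probe and 1 above by every probe, so the probes of the other 6 disagreed in direction. On the low-dose array, which was compared with the same control, 80 of 94 members lay below control with a median of -0.40, against 64.4% of all 9770 genes measured on both. Fat cell genes differed the other way on the high-dose array. The summed level of the 10 white adipocyte genes was 5968 on the control and 7734 on the high-dose array, and that of the 10 brown adipocyte genes 3438 and 6575. Of the defining genes, Adipoq had 83.7 on the control and 684 on the high-dose array (3.03), and Fabp4 had 63.1 and 578 (3.20). Lep and Plin1 were not above background on either array. The part of other cell types in the lower tubule signal was not tested.

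Organic ion carriers, which take drugs and waste from blood into urine, had the lowest median of the lists, -0.42 over 27 genes (-0.39 relative to genes of like signal). Of them 21 lay below control and 6 above, with 9 at least 1.5-fold lower and 2 higher, where 56.4% of all genes lay below control, 3.78% were 1.5-fold lower and 3.71% higher. Slc22a2, the organic cation carrier of the basolateral membrane, had 4697 on the control, 2688 on the high-dose and 1889 on the low-dose array (-0.81). Abcc4, an efflux pump for organic anions and cyclic nucleotides, had 717, 421 and 577 (-0.77, other probe -0.21). Slc22a24 had 1603, 965 and 563 (-0.73). Slc22a6, the main organic anion uptake carrier, stood at -0.50, and its partner Slc22a8 at -0.31. The members above control were mostly Slco genes: Slco3a1 stood at 0.72, and Slco4a1 had 115, 179.6 and 1669 (0.65), far higher on the low-dose than on the high-dose array. Close relatives such as Abcb1a and Abcb1b or the Slc22 genes may share probe sequence, which was not checked.

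The list of brush border peptidases, which cleave filtered peptides including angiotensins, had a median of -0.35 (-0.27 relative to genes of like signal). In it 12 of 13 genes lay below control (56.4% of all genes). The 12 include the angiotensin precursor Agt (-0.43) and the cathepsin Ctsa (-0.39), which are not brush border peptidases. Dpp4, a dipeptidyl peptidase, had 2760 on the control, 1712 on the high-dose and 1307 on the low-dose array (-0.69), but its other probe gave -0.01. Mep1b, the meprin beta subunit, had 3081, 1951 and 1294 (-0.66). Ggt1, which splits glutathione, had 6061, 4191 and 3322 (-0.53). Mep1b and Ggt1 were lower on the low-dose array than on the high-dose array. Mme, the endopeptidase neprilysin, stood at -0.46 and Ace at -0.27. Anpep, an aminopeptidase, was the member above control, at 0.09.

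Among glucose, phosphate and gluconeogenesis genes, 18 of 20 lay below control (56.4% of all genes), with a median of -0.33 (-0.21 relative to genes of like signal). Slc5a2, the main glucose carrier of the early proximal tubule, had 6814 on the control, 4450 on the high-dose and 5371 on the low-dose array (-0.61). Slc2a2, the glucose exit carrier, had 737, 471 and 645 (-0.65). Slc2a5, the fructose carrier, had 1122, 652 and 609 (-0.78). Carriers of sugar entry and exit were low side by side on the high-dose array. G6pc1, the last enzyme of glucose release, stood at -0.59 by 1 probe and 0.12 by the other, and Fbp1 at -0.41. Pck1, the rate-limiting enzyme of gluconeogenesis, stood at -0.08, close to the median of all genes. The phosphate carriers Slc34a1 and Slc34a3 stood at -0.33 and -0.32, and Slc2a1, a glucose carrier of many cell types, was the farthest above control at 0.38.

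Amino acid and peptide carriers had a median of -0.29 (-0.23 relative to genes of like signal), with 17 of 22 below control (56.4% of all genes). Slc6a18, a neutral amino acid carrier of the late proximal tubule, had 3616 on the control, 2306 on the high-dose and 1971 on the low-dose array (-0.65, other probe -0.13). Slc7a9, the cystine carrier subunit, had 2678, 1823 and 2050 (-0.55) on 10 spots with an SD of 0.06. The peptide carriers Slc15a1 and Slc15a2, which take up the di- and tripeptides released from protein, stood at -0.36 and -0.29. Slc7a12 went the other way, at 211, 364 and 90.7 (0.79), and was the highest on the high-dose array of the 3. Slc1a5 stood at 0.77 and Slc7a7 at 0.54.

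The proximal tubule marker list itself stood at -0.36 over 37 genes (-0.25 relative to genes of like signal), with 31 below control (56.4% of all genes). Of the 37, 28 were in the brightest group, where 66.4% of all genes lay below control. Below the median of their own signal group lay 28 of the 37. The list included the bicarbonate exit carrier Slc4a4 at 2695, 1606 and 1983 on the control, high-dose and low-dose arrays (-0.75, other probe -0.35). The protein uptake receptors Lrp2 (megalin) and Cubn (cubilin) stood at -0.54 and -0.62, and the other probe of Lrp2 at -0.89. Slc5a12, a lactate carrier, stood at -0.66 by 1 probe and 0.02 by the other. The transcription factor Hnf4a, which drives proximal tubule genes, stood at 0.02, near the median of all genes.

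Cytochrome P450 genes, many of them expressed in the proximal tubule, had a median of -0.23 (-0.17 relative to genes of like signal), with 20 of 25 below control (56.4% of all genes). Cyp2d5 had 7042 on the control, 4143 on the high-dose and 2950 on the low-dose array (-0.77). Cyp4a8, an omega-hydroxylase of arachidonic acid, had 2687, 1733 and 2168 (-0.63, other probe -0.20). Cyp2c23, the main epoxygenase of rat kidney, had 22391, 16387 and 17461 (-0.45, spot SD 0.31). Cyp4v3 stood farthest above control at 0.46, at a dim level. Members of these subfamilies are close copies of each other, and probes may not separate them.

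Glucocorticoid-responsive genes were low as a list, and 2 of the 15 genes at least 2-fold lower (0.151% of all genes), Bcl6 and Errfi1, belong to it. The list was chosen with earlier results of these data known, so their membership is no separate evidence. The median was -0.31 over 19 of 24 genes (-0.19 relative to genes of like signal), with 14 below control (56.4% of all genes) and 5 at least 1.5-fold lower (3.78% of all genes). Sgk1, a kinase that steroids induce and that regulates sodium channels, had 983 on the control, 500.3 on the high-dose and 917 on the low-dose array (-0.97, or 1.96-fold lower). Fkbp5, a co-chaperone of the glucocorticoid receptor, had 651, 356 and 794 (-0.87). Tsc22d3, the leucine zipper protein GILZ, had 951, 662 and 1009 (-0.52). Sgk1, Fkbp5 and Tsc22d3 were low on the high-dose array with a low-dose level near or above control.

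Other members differed less. Klf9 stood at -0.45, Nfkbia at -0.44, the metallothioneins Mt1 and Mt2A at -0.47 and -0.23, and Ddit4 at -0.18. Lcn2 and Angptl4 lay above control at 0.50 and 0.46. The receptor Nr3c1 was dim and stood at 0.07. Dusp1 was above background on the high-dose array only, and Per1, Zbtb16, Tat and Pdk4 on neither, so the list was read without them.

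The promoters of the lowest member and of the member with 10 spots are shown, as examples of list members low on the high-dose array; Klf15 was nearly as low on the low-dose array. Each is the 250 bases before the transcript start in RefSeq (GRCr8), 5′ to 3′ on the gene's strand, with the E-box CACGTG in capitals. The Bcl6 window lies at chr11:90358503-90358752 on the plus strand and the Klf15 window at chr4:124522765-124523014 on the plus strand.
Bcl6: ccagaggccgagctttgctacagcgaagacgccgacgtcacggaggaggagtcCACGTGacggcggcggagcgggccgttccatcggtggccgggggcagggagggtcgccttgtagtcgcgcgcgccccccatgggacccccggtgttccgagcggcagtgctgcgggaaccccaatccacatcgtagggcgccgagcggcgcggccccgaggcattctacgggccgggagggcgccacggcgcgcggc
Klf15: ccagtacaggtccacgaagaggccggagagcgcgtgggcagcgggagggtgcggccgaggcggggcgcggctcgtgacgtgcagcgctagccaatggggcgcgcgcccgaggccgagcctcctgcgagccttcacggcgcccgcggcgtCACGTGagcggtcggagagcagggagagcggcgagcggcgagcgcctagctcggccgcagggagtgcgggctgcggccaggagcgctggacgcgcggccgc
The E-box, which reads the same on both strands, was present in 3 of the 18 list members with a promoter in the table (16.7%: Bcl6, Klf15 and Mt2A) and in 5.79% of all 27457 promoters. The glucocorticoid half-site AGAACA, searched on both strands as AGAACA and TGTTCT, was present in 1 of the 18 (5.56%, Sult1a1) and in 17.1% of all promoters. The motifs do not overlap each other. A match is a description of these letters in this window only.

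Clock genes differed in opposite directions within the list, whose median was 0.07 over 13 genes and turned to -0.27 with the filter raised to 10. Nr1d2, a repressor of the clock, had 49.3 on the control, 25.7 on the high-dose and 27.0 on the low-dose array (-0.94, normexp -0.45). Per2 had 172, 116 and 118 (-0.57), and Dbp, an output factor of the clock, had 6336, 4393 and 4745 (-0.53). In these 3 genes both treated arrays lay below control by similar amounts. Bmal1, the activator that peaks opposite to them, had 41.3, 68.7 and 44.4 (0.74, normexp 0.27), so it was higher on the high-dose array only. Cry1, Bhlhe40 and Tef stood between 0.07 and 0.21, and Clock and Per1 were not above background.

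The Per2 promoter is shown because it alone of 10 clock gene promoters held the D-box, a motif that Dbp and its relatives bind. Any link between the levels of Dbp and Per2 was not tested. The window lies at chr9:99496994-99497243 on the minus strand (RefSeq, GRCr8), written 5′ to 3′ on the gene's strand, with the D-box TTATGTAA in capitals.
Per2: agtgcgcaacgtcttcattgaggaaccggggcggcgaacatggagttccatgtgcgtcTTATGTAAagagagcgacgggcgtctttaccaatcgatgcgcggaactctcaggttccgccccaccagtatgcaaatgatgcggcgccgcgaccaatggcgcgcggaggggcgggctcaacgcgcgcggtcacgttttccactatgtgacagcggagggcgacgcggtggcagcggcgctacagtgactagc
The D-box, searched as TTATGTAA and TTACATAA, was present in 1 of 10 clock genes with a promoter in the table (10.0%) and in 0.816% of all promoters. The E-box was present in 2 of the 10 (20.0%: Tef and Bhlhe40). Among 32 proximal tubule markers with a promoter, 3 held the E-box (9.38%), 3 the glucocorticoid half-site and 1 the D-box (Miox).

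Genes of mineralocorticoid and vitamin D handling had a median of -0.33 over 16 genes (-0.21 relative to genes of like signal), with 13 below control (56.4% of all genes). This list shares Lrp2, Cubn, Slc34a1 and Slc34a3 with those of the proximal tubule. Hsd11b2, which shields the mineralocorticoid receptor from glucocorticoid, had 5698 on the control, 4003 on the high-dose and 4191 on the low-dose array (-0.51). The vitamin D receptor Vdr had 63.1, 43.1 and 36.7 (-0.55), Kl (klotho) had 294, 204 and 204 (-0.52), and Gc, the vitamin D-binding protein, had 783, 564 and 253 (-0.47). Gc was lower on the low-dose array than on the high-dose array, while Kl and Hsd11b2 were nearly equal on the 2. The enzymes Cyp27b1 and Cyp24a1, which make and degrade active vitamin D, stood at -0.19 and -0.12, and Calb1, a calcium-binding protein of the distal tubule, at 0.33.

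Lists of other nephron segments had medians nearer to 0. The 15 thin limb and medulla genes had a median of 0.10 (0.19 relative to genes of like signal), with 9 above and 6 below control. Of these 15, 4 were at least 2-fold higher (0.846% of all genes), and the range ran from Cldn1 at -0.34 to Akr1b1 at 2.19. The 16 thick ascending limb genes had a median of 0.09 (0.18 relative to genes of like signal), with 11 above control (43.6% of all genes) and 5 below. Within them Cldn16, a claudin of magnesium uptake, stood at -0.67 and the calcium-sensing receptor Casr at -0.62, while Slc12a1, the salt carrier of this segment, stood at 0.08, Cldn10 at 0.56 and Ptger3, a prostaglandin receptor, at 0.95 and 0.94 by its 2 probes. The 13 distal convoluted and connecting tubule genes had a median of -0.19, between the calcium pump Atp2b1 at -0.82 (other probe -0.41) and Wnk4 at 0.90, which was measured only in the weak corner. The magnesium channel Trpm6 stood at -0.59 and the kinase Stk39 at 0.52. Genes of a single segment therefore lay on both sides of control.

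Collecting duct principal cells gave a similar picture. Their 18 genes had a median of 0.01, with 6 at least 1.5-fold higher (3.71% of all genes) and 1 lower (3.78% of all genes). Aqp2, the vasopressin-regulated water channel, had 12260 on the control, 18841 on the high-dose and 30945 on the low-dose array (0.62). Avpr2, the vasopressin receptor, had 125, 199.7 and 157 (0.68). Water channel and receptor were higher, whereas the sodium channel subunits Scnn1a, Scnn1b and Scnn1g stood at -0.07, -0.11 and -0.36 and Sgk1 was the lowest member. Podocyte genes had a median of -0.29 over 16 genes (-0.20 relative to genes of like signal), with 12 below control (56.4% of all genes) and 0 at least 1.5-fold lower (3.78%). Nphs1 (nephrin) stood at -0.53 and -0.49 by its 2 probes and Ptpro at -0.54 and -0.56, while Kirrel1, at a dim level, stood at 0.90.

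Genes of the angiotensin system had a median of -0.26 over 16 genes (-0.16 relative to genes of like signal), with 10 below control. That count is near the share of all genes below control, 56.4%. Agtrap, which binds the angiotensin receptor and promotes its uptake into the cell, had 3009 on the control, 1845 on the high-dose and 2165 on the low-dose array (-0.71) and was the member at least 1.5-fold lower. Agt (angiotensinogen) had 1023, 759.6 and 583 (-0.43). This ligand precursor was below control on both treated arrays, by less than 1.5-fold on the high-dose array. The receptors Agtr1a and Agtr1b stood at 0.16 and 0.13, and Agtr2 and Mas1 were not above background. Rnpep, an aminopeptidase, was the highest at 0.77 on 10 spots, with a spot SD of 0.19.

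**Figure D5:**
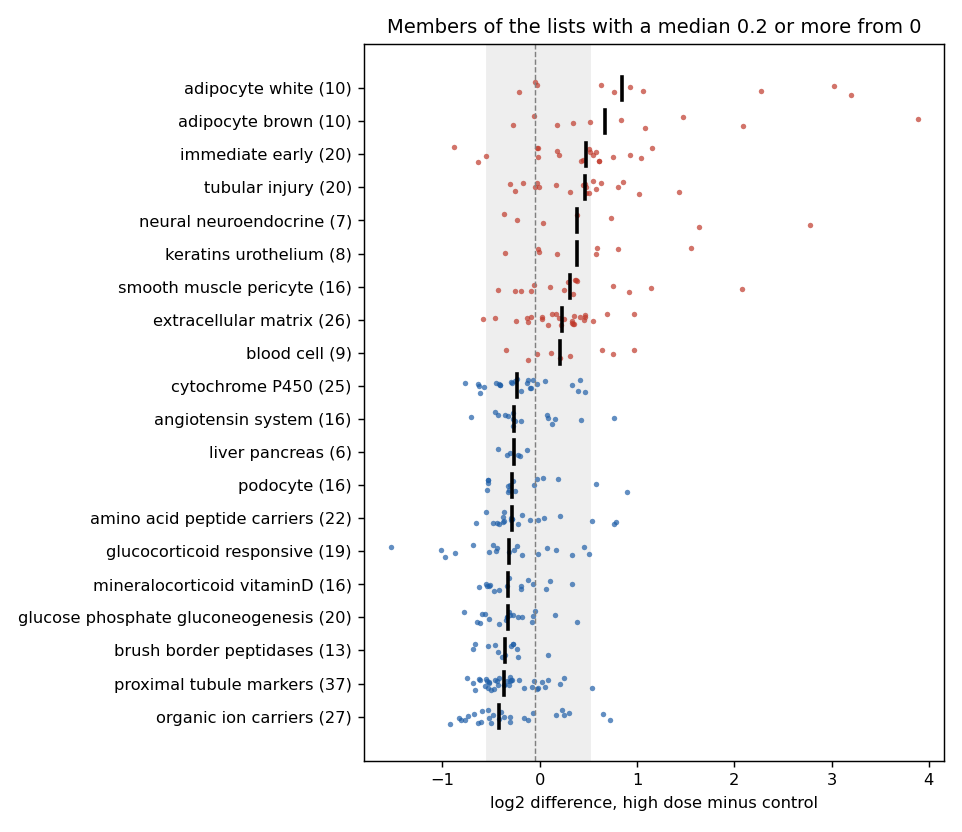
The log2 difference between high dose and control of each measured member (points) of the 20 gene lists whose median (black bar) was 0.2 or more from 0, with the number of members in brackets, the median of all genes as a dashed line and the central 90% of all genes, from -0.54 to 0.52, shaded. The blue lists lie at medians from -0.23 to -0.42 mostly within the shaded range, and the red lists at medians from 0.21 to 0.85 with some members far outside it.

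Lists near 0 held single lower genes. Genes of transforming growth factor beta and the CCN family had a median of -0.16 over 23 genes. Besides Ccn2, Ccn4 had 80.3 on the control, 44.0 on the high-dose and 96.5 on the low-dose array (-0.87), and Ski, a repressor of this pathway, had 1338, 808 and 1162 (-0.73). Ccn1, a close relative of Ccn2, stood at 0.55, and Bmp4, a ligand, at 1.01. Members of the CCN family thus lay on opposite sides of control. The median of MHC class II genes was -0.17, with 7 of 8 below control (56.4% of all genes). Relative to genes of like signal the median was -0.08, with 5 of the 8 below the median of their own signal group. Ciita, the transactivator of the class, was the lowest at -0.84 (normexp -0.39).

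The higher side was led by fat cell genes, whose sizes exceeded those of the lower side. Of 10 white adipocyte genes measured, 4 were at least 2-fold higher, and of 10 brown adipocyte genes 4, against 0.846% of all genes. The medians were 0.85 and 0.67 (0.88 and 0.73 relative to genes of like signal). Ucp1, the uncoupling protein of brown fat, had 37.6 on the control, 557 on the high-dose and 2190 on the low-dose array, with a spot SD of 0.17 around a difference of 3.89 (normexp 2.66). Thrsp, a regulator of fat synthesis, had 37.8, 470.0 and 863 (3.63, normexp 2.42). These genes were near background on the control array and bright on both treated arrays. Scd, a fatty acid desaturase, had 74.5 and 1393 (4.22, normexp 3.43), but its other probe gave 0.96. Fat markers above background on the high-dose array only were Retn, at least 19.1-fold higher (11.5 and 263), Cfd at least 15.1-fold (39.0 and 588), Car3 and Lipe, while Lep, Plin1, Cebpa, Elovl3 and Dio2 were not above background on either array. Such a lower bound divides by the dimmest level above background on the array where the probe was dim, or by the probe's level there if that was larger.

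Of the 84 genes at least 2-fold higher, 18 were measured only in the weak corner, which holds 98 of all 9928 genes, and 0 of the 15 lower genes were. The part of the weak signal in those 18 was not tested. Among the 15 farthest above control these were Eif3l (3.19, normexp 1.93), Snx7 (2.80, normexp 1.74), Snu13 (2.13, normexp 1.68) and Hsd17b8 (1.97, normexp 1.81). Outside the corner, Akr1b1, the aldose reductase of the medulla, had 52.6 on the control, 240.3 on the high-dose and 494 on the low-dose array (2.19, spot SD 0.13, normexp 1.39). Uchl1, a neuronal ubiquitin hydrolase, had 56.2, 386 and 814 (2.78, normexp 1.92). Actg2, an actin of smooth muscle, had 41.3, 175 and 72.4 and stood at 2.08 and 2.22 by its 2 probes (normexp 1.22 for the brighter). Nnat had 28.7, 138 and 94.5 (2.27, normexp 1.08), and Cox8b, a respiratory subunit of brown fat and muscle, 83.7, 356 and 1191 (2.09, normexp 1.55).

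Moderate shifts upward were found in lists of stimulus and injury response. Immediate early genes had a median of 0.47 over 20 genes (0.50 relative to genes of like signal), with 14 above control (43.6% of all genes) and 6 at least 1.5-fold higher (3.71%). The 6 include Jun (0.60), which was measured only in the weak corner. Egr1 had 135 on the control, 279 on the high-dose and 143 on the low-dose array (1.04, other probe 1.04), Klf10 had 104, 233 and 246 (1.16), and Fosb went the other way at 514, 279 and 404 (-0.88). Egr1 was high on the high-dose array only, and Klf10 on both treated arrays. Tubular injury genes had a median of 0.47 over 20 (0.52 relative to genes of like signal), with 14 above control (43.6% of all genes). S100a6 had 1785, 4821 and 8745 (1.43), S100a11 1602, 2908 and 4822 (0.86, other probe 1.09), and Spp1 (osteopontin) 1900, 2944 and 8212 (0.63). All 3 had their highest level on the low-dose array. Havcr1 (Kim-1), a defining marker of injured proximal tubule, was not above background on either array.

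Markers of connective tissue, muscle, nerve, urothelium and blood also stood above control, by small medians. The median of 26 extracellular matrix genes was 0.23 (0.32 relative to genes of like signal). Of them 20 lay above control (43.6% of all genes) and 0 stood 2-fold higher (0.846% of all genes). Eln (elastin) had 61.9 on the control, 121 on the high-dose and 287 on the low-dose array (0.97), and Dcn (decorin) 699.5, 1026 and 1495 (0.55, spot SD 0.08). Col1a1, with 203, 279 and 1884 (0.46, other probe 0.57), was far higher on the low-dose array than on either array compared. Smooth muscle and pericyte genes had a median of 0.31 over 16 (0.37 relative to genes of like signal), with 11 above control and 5 below. Tagln stood at 1.14, Myl9 at 0.92 and Acta2 at 0.75, while Synm was the lowest at -0.43. Blood cell genes had a median of 0.21 over 9 (0.33 relative to genes of like signal), with Alas2 at 0.97, Hbb at 0.31 (other probe 1.07) and Hba-a1 at -0.02. Keratin and urothelium genes had a median of 0.38 over 8 genes (0.39 relative to genes of like signal). That median turned to -0.017 when the filter on signal-to-noise was raised to 10. Of the 8 genes, 5 lay above control and 3 below, from Upk1a at 1.55 to Tp63 at -0.35. Of 7 neural genes measured, 5 lay above control and 2 below, with Nefm the lowest at -0.37. The neural list had a median of 0.38 over 7 genes (0.38 relative to genes of like signal), 16 others of the list not being above background on both arrays. That median was 0.038 with normexp, 0.030 with the filter raised to 10 and 0.76 in the authors' deposited log2 values. Liver and pancreas genes stood the other way, with 6 of 6 below control, against 56.4% of all genes (median -0.27, -0.22 relative to genes of like signal). Alb, Apoa1, Prss1 and Cela1 were not above background on either array. The part of these cell types in the differences was not tested.

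The remaining lists had medians less than 0.2 from 0. Of 55 lists with at least 5 measured members, 11 had a median of -0.2 or lower, 9 of 0.2 or higher and 35 between. Ribosomal protein genes had a median of 0.01 over 74 genes (0.12 relative to genes of like signal), respiratory chain subunits -0.03 over 68 (0.09) and lysosomal genes -0.07 over 26. Proteasome genes had a median of 0.12 over 31, which was 0.23 relative to genes of like signal. Endothelial genes stood at 0.05 over 17 and macrophage and dendritic cell genes at 0.10 over 17. Interferon response genes stood at 0.01 over 27 and intercalated cell genes at -0.05 over 17. Ribosomal and respiratory genes are bright, with 73 and 66 of them in the brightest group, where all genes had a median of -0.12.

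The arrays did not detect equally: the control array was multiplied by 1.15 and the high-dose array by 0.916, and the lowest scaled level above background was 13.8 on the control and 8.25 on the high-dose array. The part of these unequal floors in the counts of genes seen on a single array was not tested. Above background on the high-dose array only were 923 genes, of which 57 were at least 2-fold higher, and on the control array only 152, of which 7 were at least 2-fold lower. On neither were 6999, and for the other 46 the arrays were read by different probes or had no value left. On the control side the farthest was Tktl2, a transketolase-like gene, lower by at least 3.75-fold (31.0 and 4.58), followed by Atxn1l at least 2.50-fold (22.9 and 9.16). On the other side Nrg2, a ligand of ErbB receptors, was at least 20.4-fold higher (13.8 and 280.4) and the uroplakins Upk3a and Upk2, which coat the urothelium, at least 12.1-fold and 7.72-fold. These control-side genes were few and dim.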

How the data were processed

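RNA of 4 pooled kidneys per group was labelled with Cy3 and hybridised to rat 4x44K v3 arrays, per the labels' protocols. The deposited scanner files hold each spot's intensity and local background from GenePix Pro 6.1.0.4 at 532 nm, with signal-to-noise as a score and the percent of bright pixels, per the file headers. Agilent Feature Extraction is named instead in the submitters' processing notes. The authors also deposited log2 values whose making no source used here describes. The comparison had been written for Feature Extraction signals, so the mean minus the background took their place.

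Spots whose net mean exceeded 1.5 times the net median at signal-to-noise 3 or more, and bright spots not found by the scanner software, were left out. Arrays were scaled to an equal 75th percentile, set to a floor of 1 and taken to log2. A probe was above background when signal-to-noise was 3 or more on at least 50% of its spots. A gene was represented by its brightest probe above background on both arrays. Symbols came from the array annotation, updated through RefSeq (GRCr8) by accession for 18809 probes and by symbol or synonym for 2533 and 407. Python 3.11.15, pandas 2.3.3, numpy 2.4.6 and, for alternatives, R 4.3.3 with limma 3.58.1 were used.

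Named genes were all genes at least 2-fold lower, the 15 farthest higher, the 10 farthest in each direction on 10 spots, the 10 farthest lower whose every probe was low, and the farthest members of lists in and against the list's direction. Other list members, such as Slc22a6, Pck1, Avpr2 and Hnf4a, were added for their roles after their values were seen. Some genes that the rule names are not reported here. The members and lists were chosen with earlier results of these data known. The pipeline was tested on simulated data. The number of arrays limits the precision.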

Additional observations from a re-analysis of the deposited data

How the results depend on the processing

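Under 10 alternatives, of which the omission of the weak corner and the centring on regions of 20 by 20 spots were added after seeing the data, the 15 genes at least 2-fold lower, the 15 farthest above control and 19 of the 20 list medians 0.2 or more from 0 kept their direction wherever they had a value. Some genes and list medians nearer to 0 turned, such as Th, from 0.03 to -0.05 with centring on regions. The exception among the 20 was the keratin and urothelium list, which went from 0.38 to -0.017 with the signal-to-noise filter raised to 10, and to 0.20 with normexp, 0.73 without a filter and 0.54 with the mean over probes. Counts moved more than directions. At least 2-fold higher and lower stood 37 and 2 genes with normexp against 84 and 15, and 1052 and 965 without a filter. At a ratio of 10 or more 34 were higher, and the lower side held 28 in the authors' deposited log2 values and 31 with non-uniform spots kept. The lower share of 2-fold calls was 15.2%, but 5.13% with normexp, 25.2% with non-uniform spots kept and 47.8% without a filter. At least 1.5-fold higher and lower were 156 and 105 with normexp and 2153 and 2059 without a filter, and 166 were higher at a ratio of 10 or more, where the lower share went from 50.5% to 62.0%.

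Normexp also gave smaller medians for the white adipocyte (0.62), brown adipocyte (0.53), tubular injury (0.32), immediate early (0.31), smooth muscle (0.17), extracellular matrix (0.11) and neural (0.038) lists. A ratio of 10 or more gave 0.63, 0.83 and 0.030 for the white adipocyte, brown adipocyte and neural lists and -0.44 for the glucocorticoid list. The authors' values gave 0.76 for the neural and 0.33 for the blood list, the pixel median 0.73 for the neural list, and the mean over probes 0.42 for the blood list. The cause was not tested. The proximal tubule median lay between -0.38 and -0.25 and that of organic ion carriers between -0.48 and -0.32 over all 10 alternatives. Leaving out regions that differ by over 0.5 removed 0 of 125 regions and gave no separate value. No paired analysis was possible because each group has 1 array.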
